A study of Mus musculus with 30 samples.

Results

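This report compares aortas of B cell-deficient mice, called uMT in the labels, with wild-type (WT) aortas 42 days after a sham operation. The arrays were chosen by their titles, and 6 of the 30 arrays of the study belong to the comparison: 3 of uMT sham day 42 and 3 of WT sham day 42. In the study an abdominal aortic aneurysm was induced by laying calcium chloride on the outside of the aorta, and the sham animals received physiological saline there in its place. The 6 aortas compared here therefore had surgery and no calcium chloride, although their tissue is labelled abdominal aortic aneurysm like every other sample. Both genotypes are labelled C57BL/6, with no substrain, age, sex or littermate status given. No label says whether an array holds 1 animal or a pool, or that arrays of a group came from separate animals. The p-values therefore measure only the spread between arrays of a group, pooled over all 30 arrays of the study unless another fit is named. Total RNA was labelled with Cy3 and hybridised to 1-colour Agilent mouse expression arrays.

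The uMT allele disrupts the gene of the immunoglobulin mu heavy chain, and without a membrane mu chain precursor cells do not mature into B cells. B cells carry a surface immunoglobulin with the signalling chains Cd79a and Cd79b, present peptides on MHC class II and, as plasma cells, secrete antibody. In the aorta the media is built of smooth muscle cells and elastic lamellae, while the adventitia holds fibroblasts, resident macrophages and few lymphocytes. In bulk tissue such as this, fewer cells of a type and less RNA per cell cannot be told apart.

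Levels are given as log2 of the processed signal relative to the 75th percentile of the same array, so that 0 is that percentile. WT values are given in the order of WT arrays 1, 2 and 3, and uMT values in the order of uMT arrays 1, 2 and 3. A difference is uMT minus WT on this log2 scale, with its standard error from limma, and a gene is called when its limma p-value, adjusted over all genes by the Benjamini-Hochberg method, is under 0.05. The smooth muscle markers of the aortic wall were bright on all 6 arrays. Smooth muscle actin (Acta2) lay at 10.19, 10.56 and 9.99 in WT and 9.90, 10.09 and 11.05 in uMT, and the smooth muscle myosin heavy chain (Myh11) at 7.05, 9.29 and 7.30 in WT and 7.33, 7.95 and 8.33 in uMT. The labelled tissue and its defining markers thus go together on every array.

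WT array 2 was dim. Its 75th percentile of signal was 36.05 intensity units, against 190.4 and 253.6 on WT arrays 1 and 3 and 230.8, 121.1 and 95.7 on the uMT arrays, and 82.3 to 428.2 on the other 24 arrays of the study. Probes well above background made up 36.5% of all probes on it, 50.7% and 53.7% on the other WT arrays, and 53.3%, 47.8% and 45.8% on the uMT arrays. Over all genes, which are not independent replicates, WT arrays 1 and 3 correlated at 0.981, and WT array 2 correlated with them at 0.727 and 0.718. It was also the only one of the 6 on the second scan day. Each WT array came from a slide of its own and the 3 uMT arrays from a single further slide, so no slide held both genotypes of this comparison, and a fit with slide as a term also draws on the other groups of the study. Results below are given with all arrays and without WT array 2.

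The arrays also differed in how their signal was spread over the range of levels. Genes were split into 10 equal groups by their mean level on the other 24 arrays of the study. Against the mean of the WT unoperated and WT sham day 7 arrays, WT array 2 lay 1.91 higher at the median of the lowest level group and 1.01 lower at the median of the highest. The uMT arrays shared that direction to a lesser degree, with medians of 0.32, 0.69 and 0.67 in the lowest level group and -0.20, -0.45 and -0.08 in the highest. WT arrays 1 and 3 stayed at -0.03 and 0.02 in the lowest level group and reached 0.28 and 0.21 in the highest. Without WT array 2 the median difference between the genotypes accordingly ran from 0.57 in the lowest level group to -0.52 in the highest. The part of this slope in the differences of single genes was not tested, and gene lists below are set beside the median of their own level where it matters.

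**Figure D1:**
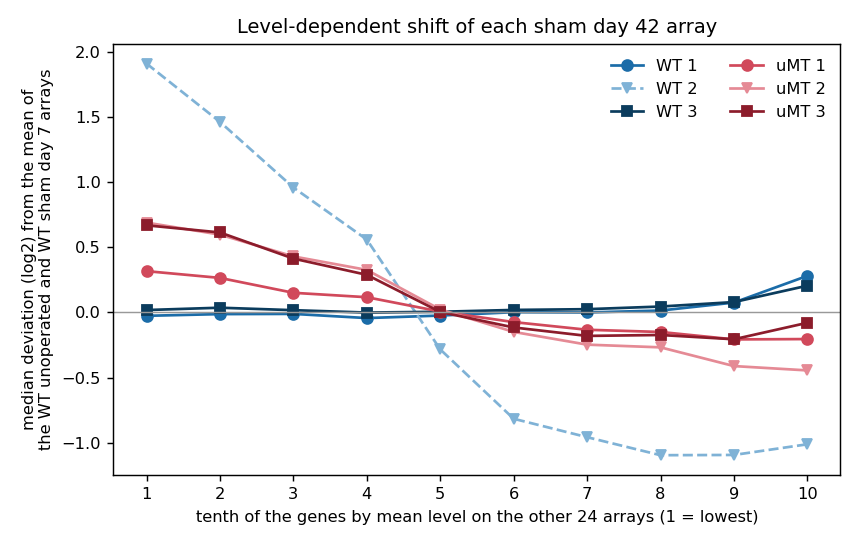
Median log2 deviation of each sham day 42 array from the mean of the WT unoperated and WT sham day 7 arrays (y axis), for genes split into 10 equal groups by mean level on the other 24 arrays (x axis, 1 is the lowest). WT array 2 (dashed) falls from 1.91 to -1.01, the 3 uMT arrays slope the same way from at most 0.69, and WT arrays 1 and 3 stay between -0.04 and 0.28.

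With all arrays, 411 of 23266 genes were higher in uMT (1.77% of the genes tested) and 553 were lower (2.38%). Without WT array 2, 3389 of 23283 genes were higher (14.6%) and 4351 lower (18.7%). Of the calls made with all arrays, 391 of the 411 higher genes (95.13%) and 526 of the 553 lower genes (95.12%) were called in the same direction without the dim array. They made up 11.54% and 12.09% of the longer lists. Leaving out another array in place of it gave 612 higher and 621 lower genes without WT array 1, 967 and 776 without WT array 3, 672 and 851 without uMT array 1, 23 and 43 without uMT array 2, and 67 and 152 without uMT array 3. The share of calls that were higher was 42.6%, and other scalings of the same arrays moved it to between 51.5% and 64.7%. In the highest level group 40.7% of the genes were called lower without the dim array, against 1.59% in the lowest level group. When the slide was fitted as a random block, no gene was called with all arrays, where 1746 genes had an unadjusted p under 0.05, and with the 6 arrays fitted alone limma also called none, where 740 genes had one. With WT array 2 left out, the random block gave 3935 higher and 5010 lower genes, the compared groups alone 259 and 21, and the slide as a fixed block 6 and 0, so that no fall was called in the last of these fits. By chromosome, the share of genes called ranged from 2.05% to 5.7%, leaving out the 14 genes of the Y chromosome, of which 0 were called, with 3.76% on chromosome 12, which carries the immunoglobulin heavy chain locus, and 3.87% on chromosome 13.

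With all arrays, the largest differences came mostly from probes that hold dinucleotide repeats. Of the 12 leading rises 7 were measured by a probe with a CA repeat, and of the 12 leading falls 10 were measured by a probe with a GT repeat. In the fit without WT array 2 the 12 leading rises held 4 CA repeat probes and 1 GA repeat probe, and the 12 leading falls held 0 with a GT repeat. A repeat here is a run of at least 4 units, 8 bases, read on the strand of the probe, and this grouping was chosen after the values were seen. The stretches of the probes are shown because the direction of the difference went with their letters, with the repeat in capitals. Coordinates of the 60-base probes are on mm9, from the scanner files. The first pair of lines below holds probes that were higher in uMT, with smoothened (Smo), the transducer of Hedgehog signals, and catalase (Cat), the peroxisomal enzyme that breaks down hydrogen peroxide. The next pair holds probes that were lower, of the ubiquitin ligase Hecw1 and the potassium channel Kcna4. The last pair holds the other probe of Smo and of Cat, and the span of the latter on the genome is wider than the probe itself.
Smo repeat probe, chr6:29710919-29710978, plus strand: CACACACAgACACACACACACAtacactct
Cat repeat probe, chr2:103294487-103294546, minus strand: tacaacacacatacCACACACACACACACA
Hecw1 repeat probe, chr13:14320490-14320549, minus strand: gtatcatttTGTGTGTGTGTGTGTGTGTGT
Kcna4 repeat probe, chr2:107138207-107138266, plus strand: aagtcccttttgtgtaTGTGTGTGTGTGTc
Smo other probe, chr6:29711225-29711284, plus strand: aatgtctagtcattttcatagtgccccaca
Cat other probe, chr2:103297086-103300428, minus strand: aacagtgctaatgaagacaatgtcactcag

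The probes of a repeat moved together, and further probes of the same genes rarely moved with them. Smo lay at 3.36, 5.16 and 3.32 in WT and 5.26, 7.23 and 7.46 in uMT by its repeat probe. That gave a difference of 2.70 (SE 0.70, adjusted p = 0.031), or 3.31 (SE 0.74, adjusted p = 0.0033) without WT array 2. Its other probe, from the same gene, differed by 0.25 (SE 0.28). For Cat the repeat probe differed by 2.53 (SE 0.71) and the other probe by -0.82 (SE 0.22), in opposite directions. Of the 220 probes with a CA repeat, 35 were higher (15.9%) and 4 lower, with a median difference of 0.85, and without WT array 2 139 were higher (63.2%) and 12 lower, with a median of 1.68. Of the 333 probes with a GT repeat, 113 were lower (33.9%) and 5 higher, with a median of -0.79, and without WT array 2 32.1% were lower and 33 probes higher, with a median of -0.53. Among the 32206 probes with no dinucleotide repeat, with all arrays, 601 were higher (1.87%) and 859 lower (2.67%). Without WT array 2, 4310 of them were higher (13.4%) and 5699 lower (17.7%). Where a gene with a called repeat probe had a further probe, that probe was called in the same direction in 0 of 19 genes for the CA repeats, and in 2 of 47 genes for the GT repeats.

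The arrays differed in these probes as follows. Against the WT unoperated and WT sham day 7 mean, the median CA repeat probe deviated by -0.10, 1.50 and -0.06 in WT and by 0.87, 1.89 and 1.65 in uMT. The median GT repeat probe deviated by 0.10, 2.67 and 0.17 in WT and by -0.33, -0.57 and -0.60 in uMT. The other 24 arrays ranged from -0.69 to 1.43 for the CA repeats and from -0.46 to 0.81 for the GT repeats. WT array 2 stood with the uMT arrays for the CA repeats and far above every other array for the GT repeats. Probes with a GA repeat, of which none was called higher and 1 lower with all arrays, had 112 of 227 called higher without WT array 2, with a median of 2.12. The median GA repeat probe deviated by 1.14, 5.55 and 0.30 in WT and by 1.64, 4.29 and 2.73 in uMT. For these probes the other 24 arrays ranged from -0.42 to 5.36. The part of the repeats in the differences of single genes was not tested. With these probes left out, 340 genes were higher and 425 lower of 22718, of which 339 and 420 were also called with them.

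**Figure D2:**
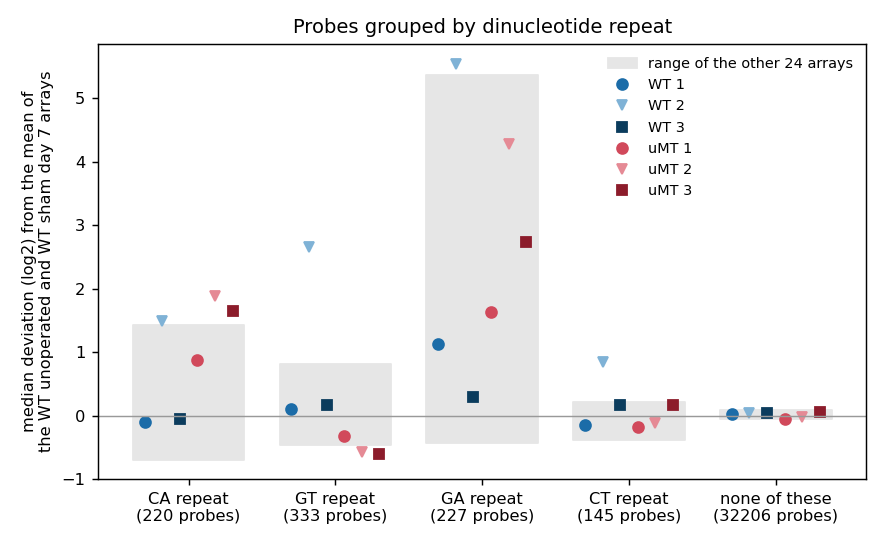
Median log2 deviation of each array from the mean of the WT unoperated and WT sham day 7 arrays (y axis) for probes grouped by dinucleotide repeat (x axis), with the range of the other 24 arrays as a grey bar. The CA repeat probes lie at 0.87 to 1.89 on the uMT arrays against -0.10 and -0.06 on WT arrays 1 and 3, and the GT repeat probes at 2.67 on WT array 2, while probes with none of the repeats stay near 0 on all 6 arrays.

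No gene of the B cell or plasma cell lists was called with all arrays. Of the B cell genes, 18, 8 and 14 were well above background on the WT arrays and 13, 9 and 11 on the uMT arrays. Of 25 B cell receptor and identity genes 22 were tested, 0 were called in either direction, and their median difference was -0.54, against 0.04 over all genes. The 12 plasma cell and antibody secretion genes had 0 calls and a median of -0.45. In the fit without WT array 2, 2 B cell genes were higher and 3 lower, and 2 plasma cell genes were lower, beside 14.6% of all genes called higher and 18.7% called lower. Ms4a1, which encodes the B cell surface protein CD20, lay at -1.49, -0.71 and -5.38 in WT and -3.50, -5.03 and -3.85 in uMT. It was well above background on 2 of 3 WT arrays and on 0 of 3 uMT arrays, the groups overlapped through WT array 3, and its adjusted p was 0.33. The levels were also summed over the B cell list on a linear scale and taken back to log2. The sums lay at 3.81 to 4.15 in WT and 4.16 to 4.41 in uMT. Such a sum leans on its bright genes. Among these was Cd22, described below, at 0.33, 2.53 and 0.36 in WT and 1.94, 3.12 and 3.05 in uMT. The sum without Cd22 was not taken. The median level of the list lay at -3.33 to -1.97 in WT and -3.75 to -2.699 in uMT. The groups thus overlapped in the median. Of the 22 differences, 15 were negative.

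The signalling chains of the B cell receptor were not called with all arrays. Cd79b lay at 0.55, -3.34 and -0.56 in WT and -0.89, -4.10 and -1.63 in uMT, with a difference of -1.09 (SE 0.69, adjusted p = 0.42) and, without WT array 2, of -2.20 (SE 0.59, adjusted p = 0.0079). Cd79a lay at -1.71, -0.54 and -2.72 in WT and -2.65, -2.01 and -1.93 in uMT, and differed by -0.54 (SE 0.38, adjusted p = 0.48), or by 0.01 without WT array 2. The groups overlapped in both genes. Cd22, an inhibitory receptor of B cells, lay at 0.33, 2.53 and 0.36 in WT and 1.94, 3.12 and 3.05 in uMT, and its difference of 1.63 (SE 0.47, adjusted p = 0.0503) did not pass the threshold with all arrays and was 2.36 (SE 0.40, adjusted p = 0.0013) without WT array 2. In Cd22 WT array 2 stood with the uMT arrays, as it did for the median CA repeat probe. Whether the probe of Cd22 holds a repeat is not given here, nor is a second probe. These values therefore do not show whether the difference reflects expression in B cells. Jchain, which links the units of secreted polymeric antibody, had an adjusted p of 0.49 and was well above background on WT array 1 alone. Syk, the kinase that relays signals of the B cell receptor and Fc receptors and is named in the study's title, lay at 1.43, -0.51 and 1.59 in WT and 1.67, 0.996 and 0.56 in uMT, a difference of 0.24 (SE 0.46, adjusted p = 0.83).

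The probe for the heavy chain constant region mu was read on its own. It lies at chr12:114659630-114659689 on mm9, on the minus strand, and its opening stretch is printed to identify it, with no part marked.
Immunoglobulin heavy constant mu: tgtggctagtgtttgtgtggaagactggaa
Its level was 0.11, -1.74 and -0.27 in WT and -0.59, -1.97 and -2.68 in uMT. The groups overlapped, since WT array 2 lay below uMT array 1. The difference was -1.11 (SE 0.56, adjusted p = 0.29), and -1.67 without WT array 2 (adjusted p = 0.031). The labels do not give the exon that the allele disrupts, so the probe does not check the genotype. Of 134 immunoglobulin probes on the array, 21, 14 and 14 were well above background in WT and 22, 15 and 10 in uMT. A constant lambda 3 probe lay at -0.72, -3.43 and -3.63 in WT and -5.76, -4.73 and -4.80 in uMT, with no overlap and an adjusted p of 0.063. It was well above background on WT arrays 1 and 3 and no uMT array, at least 1.42-fold lower in uMT, and at least 1.89-fold lower without WT array 2 (adjusted p = 0.013). Its value on WT array 2 was not well above background, so the lack of overlap there cannot be told from the dimness of that array. A heavy chain probe of the J558 family lay at -1.02, 1.54 and -3.75 in WT and -5.99, -5.20 and -5.03 in uMT. It was well above background on 3 of 3 WT arrays and 0 of 3 uMT arrays, and was at least 4.05-fold lower (adjusted p = 0.13), or at least 1.64-fold lower without WT array 2 (adjusted p = 0.18). None of the immunoglobulin features was called with all arrays. When WT array 2 was left out, 5 of 42 kappa features were called higher. Of 21 heavy chain features 1 was higher and 1 lower, and of 4 lambda features 1 was lower. In that fit 14.6% of all genes were called higher and 18.7% lower.

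Nnt and Arsk, on chromosome 13, separated the genotypes without overlap in every condition of the study. Together with Map1b of the same chromosome they were listed because earlier results of these data had shown them, so their calls are a description. Nnt encodes the mitochondrial transhydrogenase that makes NADPH, Arsk encodes a lysosomal sulfatase, and Map1b encodes a microtubule-associated protein best known from neurons. Nnt and Arsk are shown by their probes because probes of each gene gave different answers.
Nnt probe 1, chr13:120124335-120124394, minus strand: gtattaagtgcgcttgaatggaatgcaacc
Nnt probe 2, chr13:120142585-120142644, minus strand: ggagggaccaacattgttctgatgtggagg
Arsk probe 1, chr13:76199926-76199985, minus strand: ttggaccagaagcttcgttctattgtaaac
Arsk probe 2, chr13:76198809-76198868, minus strand: cagctgttggcattcccaccaataggtagc
Each line holds the opening stretch of the probe, with no part marked.

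By its brighter probe Nnt lay at 2.21, 0.58 and 1.90 in WT and 3.61, 3.58 and 3.78 in uMT. All 3 uMT arrays lay above all 3 WT arrays, and the difference was 2.09 (SE 0.27, adjusted p = 0.0013), or 1.60 (SE 0.16, adjusted p = 3.46e-05) without WT array 2. Over the 30 arrays of the study this probe ranged from 0.58 to 2.43 in WT and from 2.95 to 3.91 in uMT. The second probe of Nnt differed by 0.23 (SE 0.34). Arsk lay at -0.84, -1.76 and -1.13 in WT and 0.57, 0.21 and -0.04 in uMT by probe 1, a difference of 1.49 (SE 0.23, adjusted p = 0.0028), or 1.23 (SE 0.21, adjusted p = 0.0013) without WT array 2. By probe 2 it lay at -0.37, -0.13 and -0.19 in WT and -4.29, -4.95 and -4.76 in uMT, where it was not well above background on any array. That probe was at least 7.28-fold lower in uMT (adjusted p = 2.58e-09 over all probes). The same gene was thus higher by the first probe and lower by the second. Map1b lay at 1.61, -0.05 and 2.11 in WT and 3.87, 3.77 and 4.65 in uMT, a difference of 2.87 (SE 0.53, adjusted p = 0.0059), or 2.23 (SE 0.51, adjusted p = 0.0035) without WT array 2, while its second probe differed by 0.66 (SE 0.47, adjusted p = 0.47).

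Nnt and Arsk were the genes called in the same direction in unoperated and in sham day 7 aortas as well. In unoperated aortas 21 genes (0.0903%) and in sham day 7 aortas 4 genes (0.0172%) were called between the genotypes. The difference of Nnt was 1.56 unoperated and 1.57 at sham day 7, and that of Arsk 2.16 and 1.98. Serpina3i, of the serine protease inhibitor cluster of chromosome 12, was called in those conditions and not at sham day 42. It lay 3.62 higher in uMT unoperated and 2.40 higher at sham day 7. At sham day 42 it lay at -2.52, -1.60 and -2.71 in WT and -1.07, -2.59 and -1.83 in uMT, a difference of 0.45 (SE 0.41, adjusted p = 0.62). The groups then overlapped. A second probe of Serpina3i had means of -3.59 in WT and -3.82 in uMT at sham day 7, above background on all 6 arrays. It was above background on 0 of 3 WT and 1 of 3 uMT unoperated arrays and on no array at sham day 42.

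**Figure D3:**
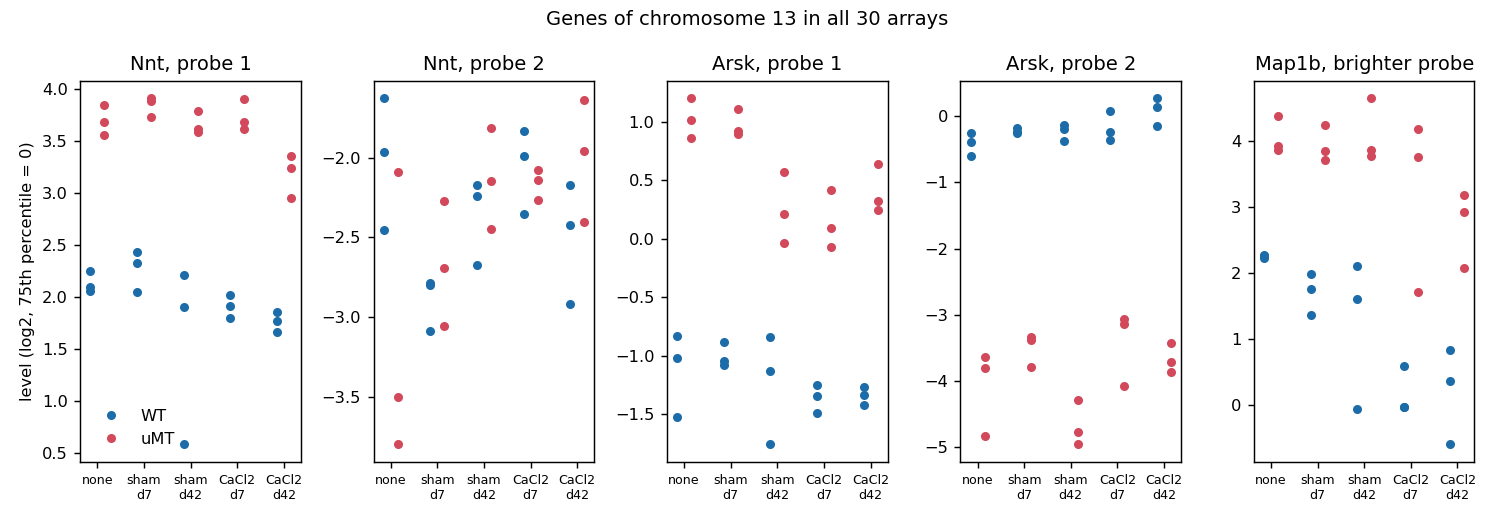
Levels (log2, 75th percentile of the array at 0) of 2 probes of Nnt, 2 probes of Arsk and the brighter probe of Map1b on all 30 arrays, by condition (none is unoperated, d7 and d42 are days after surgery) and genotype. WT and uMT do not overlap in Nnt probe 1 (0.58 to 2.43 against 2.95 to 3.91) or in either Arsk probe, whose directions are opposite, and they overlap in Nnt probe 2.

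Some genes of adventitial fibroblasts were lower in uMT. Of the 13 fibroblast genes tested 4 fell and 0 rose, with a median difference of -1.08 against 0.04 over all genes and beside the 2.38% of all genes called lower. Dpt encodes dermatopontin, a small collagen-binding matrix protein, and lay at 0.97, 1.78 and 0.16 in WT and -0.86, -2.08 and -2.04 in uMT. No uMT array reached a WT array, and Dpt fell by 2.63 (SE 0.42, adjusted p = 0.0034). Clec3b, which encodes the plasminogen-binding protein tetranectin, lay at 0.51, 0.16 and 0.08 in WT and -1.04, -2.25 and -1.48 in uMT, a difference of -1.83 (SE 0.42, adjusted p = 0.018). Cd34, a surface sialomucin of adventitial progenitors and of endothelium, lay at 6.61, 5.90 and 6.12 in WT and 5.51, 4.74 and 5.10 in uMT, a difference of -1.09 (SE 0.25, adjusted p = 0.019). In both genes the groups did not overlap. Without WT array 2 the differences were -2.22 for Dpt, -1.88 for Clec3b and -1.25 for Cd34, each with an adjusted p of at most 0.0056. Pi16, a peptidase inhibitor of adventitial fibroblasts, differed by -1.64 (SE 0.46, adjusted p = 0.045) with all arrays and by -0.96 (SE 0.40, adjusted p = 0.071) without WT array 2, where the call was lost.

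Without WT array 2, 10 of the 13 fibroblast genes fell and 0 rose, with a median of -1.40 beside 18.7% of all genes called lower. All 13 lay below the median of the level group they belong to. Lumican (Lum), a proteoglycan that spaces collagen fibrils, lay at 6.81, 4.04 and 6.63 in WT and 5.72, 3.83 and 4.79 in uMT and differed by -1.94 (SE 0.35, adjusted p = 0.0015) in that fit. Summed over the list, the levels were 9.94 to 11.16 in WT and 8.81 to 10.12 in uMT, so the groups overlapped in the sum.

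Other matrix and stromal genes with large falls had the same pattern over the arrays. Biglycan (Bgn), a proteoglycan of the arterial wall, lay at 4.67, 6.20 and 5.04 in WT and 3.61, 2.93 and 3.35 in uMT, a difference of -2.01 (SE 0.33, adjusted p = 0.0034). Mmp3, the metalloprotease stromelysin, lay at 5.70, 4.72 and 5.19 in WT and 4.15, 1.30 and 2.38 in uMT, a difference of -2.60 (SE 0.52, adjusted p = 0.0097). In both genes every WT array was above every uMT array. Hsd11b1, the enzyme that regenerates active glucocorticoid, lay at 2.94, 1.03 and 2.94 in WT and 0.50, -1.13 and -0.67 in uMT, a difference of -2.73 (SE 0.50, adjusted p = 0.0059). Esm1, a proteoglycan secreted by endothelial tip cells, lay at 2.42, 1.63 and 1.50 in WT and -0.95, -3.66 and -0.69 in uMT. It fell by 3.62 (SE 0.60, adjusted p = 0.0034), while of the 16 endothelial genes tested it was the only one called, with a list median of 0.17. Fkbp7, a prolyl isomerase of the endoplasmic reticulum, differed by -1.82 (SE 0.26, adjusted p = 0.0015), and Dio2, which activates thyroid hormone and is a brown adipocyte gene, by -2.20 (SE 0.45, adjusted p = 0.0099). Leaving out WT array 2 gave differences of -1.56 for Bgn, -2.84 for Mmp3, -3.37 for Hsd11b1, -3.73 for Esm1, -1.48 for Fkbp7 and -2.14 for Dio2. All 6 had an adjusted p of at most 0.0039 in that fit.

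**Figure D4:**
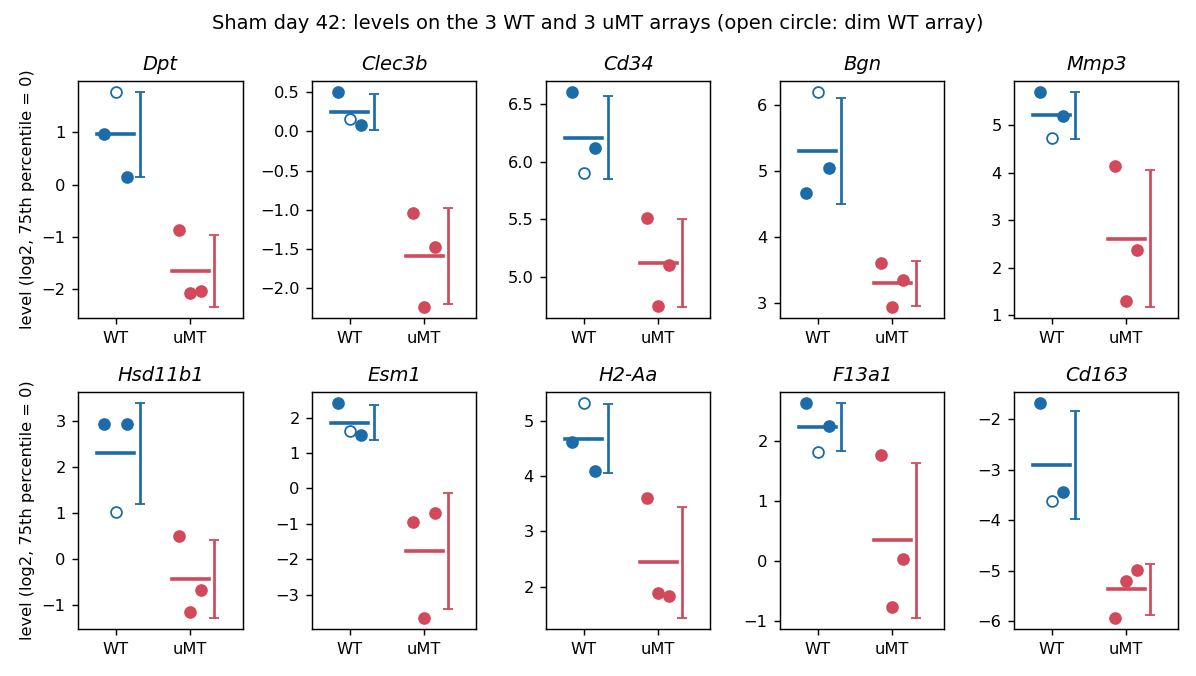
Levels (log2, 75th percentile of the array at 0) of 10 genes lower in uMT on the 3 WT and 3 uMT arrays. Points are arrays, the open circle is WT array 2, horizontal bars are group means and vertical bars are 1 SD each way (n = 3), and in all 10 genes the groups do not overlap.

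Several genes of resident macrophages and of antigen presentation were lower in uMT. Of 18 resident macrophage genes tested 2 fell with all arrays, with a median of -0.63, beside the 2.38% of all genes called lower. F13a1, the A subunit of coagulation factor XIII, which adventitial macrophages express, lay at 2.63, 1.82 and 2.26 in WT and 1.76, -0.77 and 0.04 in uMT, a difference of -1.89 (SE 0.46, adjusted p = 0.023), or -2.10 (SE 0.51, adjusted p = 0.0046) without WT array 2. Cd163, the scavenger receptor for haemoglobin complexes, lay at -1.67, -3.61 and -3.44 in WT and -5.94, -5.19 and -4.98 in uMT. It was well above background on 2 of 3 WT arrays and on no uMT array, and was at least 1.14-fold lower in uMT (adjusted p = 0.0077). Its value on the dim WT array 2 was not well above background. An immunoglobulin kappa probe at background on all 6 arrays read -3.69 there and -6.01, -5.23 and -5.06 on the uMT arrays. The lack of overlap at WT array 2 thus cannot be told from the dimness of that array. Without it Cd163 was at least 1.46-fold lower (adjusted p = 0.0015). Without WT array 2, 11 of the 18 fell and 0 rose, with a median of -1.47 beside 18.7% of all genes called lower, and 15 lay below the median of their level group. Summed over the list, the levels were 6.18 to 8.38 in WT and 7.10 to 7.93 in uMT. The mannose receptor Mrc1 lay at 3.24, -0.91 and 2.99 in WT and 2.66, 0.39 and -0.53 in uMT, and Lyve1, the hyaluronan receptor of these macrophages and of lymphatic endothelium, at 2.16, -3.41 and 0.80 in WT and 0.26, -0.83 and -0.92 in uMT. Both were lowest on WT array 2, and differed by -0.94 (SE 0.73, adjusted p = 0.53) and -0.35 (SE 0.81, adjusted p = 0.87) with all arrays. Without it they differed by -2.28 (SE 0.53, adjusted p = 0.0037) and -1.98 (SE 0.51, adjusted p = 0.0069).

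Of the 11 MHC class II presentation genes, all tested, 2 fell and 0 rose, with a median of -0.70, beside the 2.38% of all genes called lower. H2-Aa, the alpha chain of the I-A molecule, lay at 4.62, 5.33 and 4.09 in WT and 3.60, 1.88 and 1.84 in uMT, a difference of -2.24 (SE 0.36, adjusted p = 0.0034), or -1.92 (SE 0.37, adjusted p = 0.0017) without WT array 2. H2-DMb2, a chain of the peptide-loading molecule, was called (adjusted p = 0.021, group means -3.76 in WT and -4.92 in uMT) but was well above background on only 1 WT array and no uMT array, so no fold is given. Its value of -3.62 on the dim WT array 2 was not well above background. The kappa probe at background, given above, read -3.69 on that array. The part of the dim array in the call of H2-DMb2 was not tested. H2-Ab1, the beta chain of I-A, lay at 7.02, 3.49 and 6.53 in WT and 6.53, 4.33 and 4.60 in uMT, and the invariant chain Cd74 at 5.63, 4.23 and 5.08 in WT and 5.23, 3.24 and 3.57 in uMT. In both, uMT array 1 stood near WT arrays 1 and 3, uMT arrays 2 and 3 lay lower, and WT array 2 lay below the other WT arrays. Their differences were -0.53 (SE 0.58, adjusted p = 0.69) and -0.97 (SE 0.41, adjusted p = 0.2), and -1.62 (SE 0.40, adjusted p = 0.0056) and -1.34 (SE 0.43, adjusted p = 0.02) without WT array 2. In that fit 7 of the 11 fell, beside 18.7% of all genes, with a median of -1.29, and Ciita, the transactivator of the class II genes, was the 1 that rose, by 0.95.

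The MHC class II genes share a promoter element, the Y box, whose core TGATTGG is bound by NF-Y. Promoters were taken from RefSeq on GRCm38.p6 as 250 bases before to 50 after the start of each gene, and 8 of the 11 members were searched. The rest of the members had no promoter given or were left out by chromosome, a filter not applied to the promoters of all genes. The core was searched on both strands and found in 6 of the 8, against 7.82% of all 32851 promoters of this length. Matches are a description of the letters and not of binding. The stretches around the core, in capitals, are shown for 4 of the 6 members that hold it. The promoters of H2-DMa and of Ctss hold no match in this window.
H2-Aa, chr17:34287852-34287888, minus strand: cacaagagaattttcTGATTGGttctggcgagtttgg
H2-Eb1, chr17:34305791-34305827, plus strand: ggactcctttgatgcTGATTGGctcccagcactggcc
H2-DMb2, chr17:34145142-34145178, plus strand: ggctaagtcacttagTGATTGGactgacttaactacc
H2-DMb1, chr17:34153113-34153149, plus strand: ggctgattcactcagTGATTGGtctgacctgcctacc

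Other immune lists had few or no calls with all arrays. Zbtb46, a transcription factor of conventional dendritic cells, was the 1 of 8 dendritic cell genes called, beside the 2.38% of all genes called lower. It lay at -1.68, -0.20 and -1.81 in WT and -2.20, -2.87 and -2.77 in uMT. The difference was -1.38 (SE 0.36, adjusted p = 0.033), or -0.87 (SE 0.32, adjusted p = 0.039) without WT array 2. Zbtb46 was well above background on only 1 uMT array, so the size of its fall is uncertain. The 14 complement genes had 0 calls and a median of -0.10, which became 8 falls and -1.02 without WT array 2, where C3, the central complement component, differed by -0.996 (SE 0.34, adjusted p = 0.03). Of 27 interferon-induced genes 0 were called with all arrays, with a median of -0.46, and 9 fell without the dim array, with a median of -0.90. In that fit 18.7% of all genes were called lower. T and NK cell genes (20 tested, 0 called, median -0.35), Fc receptor and Syk signalling genes (17 tested, 0 called, median 0.24) and recruited monocyte genes (12 tested, 0 called, median 0.53) were among those with no call. Their medians without WT array 2 were -0.47, -0.85 and -0.38.

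The genes of the aortic media did not pass the test. Of 17 contractile smooth muscle genes 0 were called with or without WT array 2, with medians of 0.04 and -0.32. The differences were 0.10 (SE 0.53, adjusted p = 0.94) for Acta2 and -0.01 (SE 0.68, adjusted p = 0.996) for Myh11, and without WT array 2 0.26 and 0.69. Of 16 elastic fibre genes 0 were called in either fit, with medians of 0.18 and -0.25. Elastin (Eln), the core of the lamellae, lay at 2.65, 3.38 and 1.18 in WT and 2.80, 2.73 and 3.18 in uMT, so WT array 3 stood below all others, and the difference was 0.50 (SE 0.74, adjusted p = 0.77), or 0.99 (SE 0.81, adjusted p = 0.35) without WT array 2. The gelatinase Mmp2, a protease tied to aneurysm, lay at 3.15, -2.74 and 3.15 in WT and 2.24, 0.58 and 0.82 in uMT. The value of WT array 2 decided its result, with a difference of 0.03 (SE 0.87, adjusted p = 0.993) with it and of -1.94 (SE 0.35, adjusted p = 0.0015) without it. Mmp9, the other gelatinase, lay at -1.48, -3.54 and -4.34 in WT and -2.16, -4.90 and -4.31 in uMT, a difference of -0.67 (SE 1.36, adjusted p = 0.84), or -0.88 without WT array 2. Collagen and provisional matrix genes (22 tested) had Bgn as their 1 call, and Col1a1, a chain of type I collagen, differed by 0.60 (SE 0.33, adjusted p = 0.33).

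Among transcription factors that pattern the body axis, 2 of 25 Hox genes rose and 0 fell, with a median of 0.53, beside the 1.77% of all genes called higher. Hoxc4 lay at -0.78, -0.93 and -0.07 in WT and 0.57, 0.82 and 0.52 in uMT, a difference of 1.23 (SE 0.29, adjusted p = 0.022). Hoxb6 lay at 0.23, 0.55 and -0.23 in WT and 0.65, 1.15 and 1.03 in uMT, a difference of 0.75 (SE 0.21, adjusted p = 0.046). In both every uMT array lay above every WT array, and without WT array 2 they differed by 1.06 (SE 0.31, adjusted p = 0.013) and 0.94 (SE 0.20, adjusted p = 0.0026). Without the dim array 7 of the 25 rose and 1 fell, beside 14.6% of all genes called higher and 18.7% called lower. Erdr1, a gene of the pseudoautosomal region, lay at 4.26, 5.24 and 4.12 in WT and 7.05, 7.17 and 6.40 in uMT, a difference of 2.33 (SE 0.44, adjusted p = 0.007), and no probe position was given for it. Lmtk3, a membrane kinase of neurons, differed by 2.10 (SE 0.42, adjusted p = 0.0089) and D17H6S56E-5 by 2.19 (SE 0.47, adjusted p = 0.013), both from a WT level not well above background on 1 of 3 arrays. Ttc14, a protein with tetratricopeptide repeats, lay at 0.32, 0.20 and 0.36 in WT and 1.17, 1.42 and 1.53 in uMT, a difference of 1.08 (SE 0.19, adjusted p = 0.0047). With WT array 2 left out the differences were 2.68 for Erdr1, 1.79 for Lmtk3, 2.001 for D17H6S56E-5 and 1.04 for Ttc14, all called.

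Lists that stand for the general level of RNA moved with the arrays as well. Of 23 ribosomal protein genes 1 fell with all arrays and 20 fell without WT array 2, with medians of -0.27 and -0.81, and 20 of the 23 lay below the median of their level group. The ribosomal gene called with all arrays was Rps4x, at 7.44, 7.09 and 7.32 in WT and 6.57, 6.34 and 6.66 in uMT, a difference of -0.76 (SE 0.21, adjusted p = 0.044), or -0.86 (SE 0.21, adjusted p = 0.0053) without WT array 2. Of 21 mitochondrial respiratory chain genes 0 and then 16 fell, with medians of 0.01 and -0.71, and of 13 housekeeping genes 1 and then 6 fell, with medians of 0.03 and -0.62. Of all genes 2.38% fell with all arrays and 18.7% without WT array 2. In the latter fit 34.57% and 40.65% fell in the 2 highest level groups. Below the median of their level group lay 17 of the 21 mitochondrial and 9 of the 13 housekeeping genes. The medians of these lists move in the same direction as those of the fibroblast, macrophage and MHC class II genes without WT array 2, and their part in those falls was not tested. Of the 38 gene lists examined, 25 had no call with all arrays and 6 had none without WT array 2. Those 6 were the mast cell, contractile smooth muscle, elastic fibre, white adipocyte, cell cycle and Serpina3 lists.

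**Figure D5:**
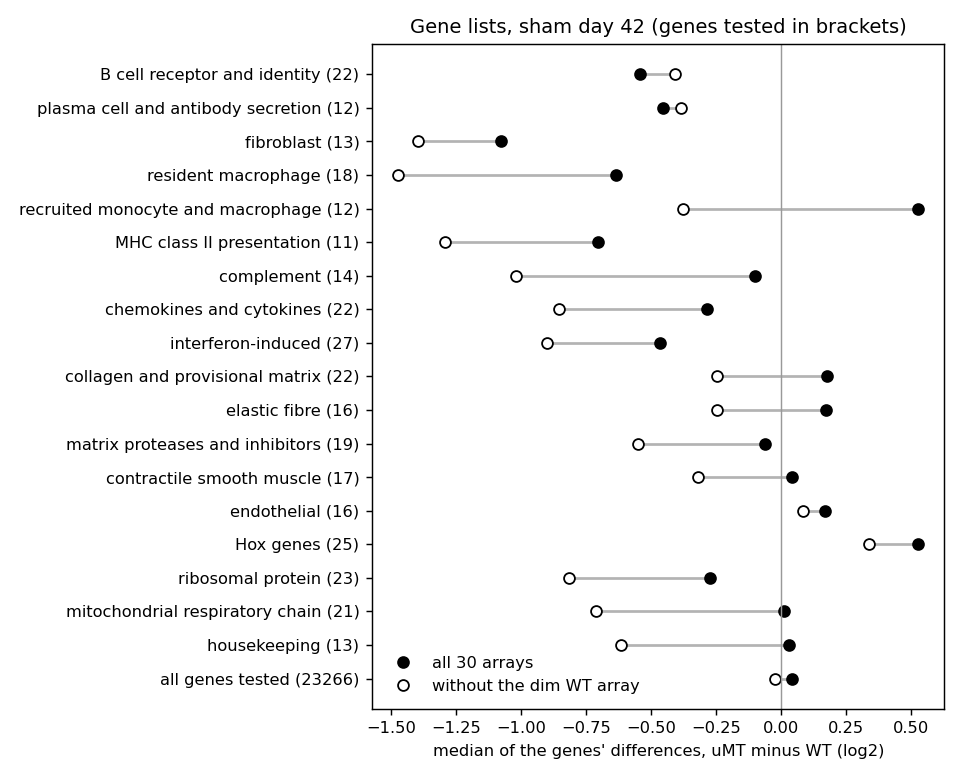
Median difference of the genes of each list, uMT minus WT on the log2 scale (x axis), with all 30 arrays fitted (filled) and without WT array 2 (open), with the number of genes tested in brackets. The fibroblast, resident macrophage and MHC class II lists lie at -1.08, -0.63 and -0.70 and move to -1.40, -1.47 and -1.29, while all genes lie at 0.04 and -0.02.

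The genotype difference at sham day 42 was also set against that in unoperated aortas, as an interaction. With all arrays it differed for 1209 genes (5.2%), 547 with a higher and 662 with a lower difference at sham day 42, and without WT array 2 for 6843 genes (29.4%). H2-Aa was 1.38 higher in uMT unoperated and 2.24 lower at sham day 42, an interaction of -3.62. Dpt was 0.53 higher unoperated, an interaction of -3.16. Ang4 and Ang6, members of the angiogenin ribonuclease family with near-identical paralogs, were 1.06 and 0.99 higher unoperated and 1.78 and 1.42 lower at sham day 42. Ribosomal protein genes had a median difference of 0.78 unoperated and -0.27 at sham day 42, and the highest level group had medians of 0.45 unoperated, -0.02 at sham day 42 and -0.52 at sham day 42 without WT array 2. The part of these shifts in the interactions was not tested. Against sham day 7 limma called 0 genes (0%) with all arrays, where 1859 had an unadjusted p under 0.05, and 1583 (6.8%) without WT array 2. Of the 553 genes lower at sham day 42, 341 had a negative difference at sham day 7 too, and 149 had one unoperated. No WT or uMT array is shared between these 3 conditions.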

How the data were processed

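Each file holds the Feature Extraction output of 1 array, version 10.7.1.1 per the file headers, where the submitters' processing notes name 9.5.1.1. The intensity used was the deposited processed signal, which per the file headers is background-subtracted and detrended, with no scaling between arrays. Control spots were left out, 55657 probes were kept, log2 values were centred on the 75th percentile of each array, and a probe was used if it was well above background on all arrays of at least 1 group. The brightest such probe stood for its gene, which left 23266 genes. limma 3.58.1 in R 4.3.3 fitted 1 mean per group over all 30 arrays, with 20 residual degrees of freedom, and was tested on simulated data. Tables were made with Python 3.11.15. Group differences rest on 3 arrays each, which limits their precision.

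Genes named are the 12 leading rises and falls with no overlap between groups, in each fit, up to 4 genes of a list by p, the 5 leading immunoglobulin features and genes of an interaction, and a fixed set from Cd79a to Acta2. Genes named from a list beyond these (H2-Ab1, Cd74, Mrc1, Lyve1, Lum, Col1a1, Ciita) were chosen after their values were seen. The members and lists were chosen with earlier results of these data known. Replicate numbers were not taken to pair the arrays. The deviations of arrays with the same number correlated at 0.457, 0.304 and -0.214. Within WT the dim array weighs on these values. With uMT array 1, WT arrays 1 and 3 correlated at 0.457 and 0.485 and WT array 2 at -0.509. They therefore cannot tell whether the numbers pair the arrays. The alternatives tried were the background correction, the scaling, the filter, the probe rule, the slide, the samples fitted, and each array left out. Settings without WT array 2 in combination with another, and those without repeat probes, were added after the data were seen. 1 gene of the fixed set is not reported here.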

Additional observations from a re-analysis of the deposited data

Results flagged for a closer look

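The genotype difference at sham day 42 differed from that in unoperated aortas, by the interaction term of the limma fit over all 30 arrays, in 27 of the genes named. Over all genes tested the share was 5.2%. The genes looked at were the 46 named genes called at sham day 42 and 13 others of the fixed set. Some were named by their interaction, and the sham day 42 difference is part of it. The count thus follows in part from the choice of genes and is a description. The value is the difference at sham day 42 minus the unoperated difference, on the log2 scale.

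Among antigen presentation and macrophage genes it was -3.62 for H2-Aa, -1.44 for H2-DMb2, -2.76 for F13a1 and -2.53 for Cd163. Among fibroblast and matrix genes it was -3.16 for Dpt, -2.43 for Clec3b, -1.54 for Cd34 and -3.18 for Mmp3. It was -3.64 for Hsd11b1, -2.60 for Fkbp7, -2.84 for Ang4, -2.42 for Ang6, -1.54 for Rps4x and -3.17 for Serpina3i. The value was -3.24 for Atp8a1, -3.05 for Blcap, -4.02 for Golga7b, -3.04 for Kcna4, -3.35 for Ralgps1, -3.22 for Slc1a4 and -3.37 for Zfp133-ps. These 7 genes were measured by probes with a GT repeat, which were high on WT array 2. Without that array their differences at sham day 42 went from -3.53 to -2.32 for Golga7b, -2.92 to -1.90 for Ralgps1, -2.81 to -1.82 for Blcap, -2.75 to -1.61 for Zfp133-ps, -2.73 to -1.61 for Slc1a4, -2.65 to -1.56 for Kcna4 and -2.64 to -1.53 for Atp8a1. Higher values were found for D17H6S56E-5 (2.57), Erdr1 (2.57), Lmtk3 (3.08), Ttc14 (1.89), Hoxc4 (1.86) and Hoxb6 (1.31).

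In the highest level group the median difference between the genotypes was 0.45 unoperated. At sham day 42 it was -0.02 with all arrays, the fit of these values, and -0.52 without WT array 2. The part of that shift in these values was not tested.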

How the results depend on the processing

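Counts are given as genes higher and genes lower in uMT. With all arrays they were 1009 and 769 with normexp correction and quantile scaling together, and 685 and 636 with quantile scaling alone. They were 710 and 387 with the percentile taken over probes detected on all arrays, and 686 and 647 in the authors' value table. More genes were thus higher than lower in these fits, against 411 and 553 in the main fit. Without the filter they were 155 and 249, with unoperated and sham arrays only 137 and 200, and with the compared groups alone 0 and 0, where limma had 740 genes at an unadjusted p under 0.05. With the slide as a random block they were 0 and 0 (1746 genes at that unadjusted p), and as a fixed block 6 and 0, also without the dim WT array 2. Quantile scaling, the percentile over detected probes and the authors' table moved the median of all genes to 0.11, 0.15 and 0.11. With the replicate number as a block they were 293 and 440, and 3033 and 3816 without the dim array. Whether the numbers pair the arrays is not known, and WT array 3 correlated best with another number.

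Without the dim array they were 259 and 21 with the compared groups alone, 3935 and 5010 with the slide as a random block, 3258 and 4202 with normexp and quantile scaling, 3077 and 3891 with quantile scaling alone, 3339 and 3473 without the filter, 3403 and 4440 with the mean of probes, 3356 and 4364 with unoperated and sham arrays only, and 3155 and 4223 without repeat probes. Array weights gave 4437 and 5506. Leaving out 1 array of the 6 gave 23 to 3389 higher and 43 to 4351 lower, and leaving out another beside the dim array 1387 to 4727 and 1728 to 5185. The interaction with unoperated aortas had 538 genes without the filter, 1836 with the slide as a random block, and 239 (without uMT array 2) to 6843 (without the dim array) with 1 array left out; that with sham day 7 had 0 to 1583, with 2 genes without WT array 3 and 22 without uMT array 1. The causes were not tested.

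Dpt, Bgn, Esm1, Hsd11b1, Fkbp7, H2-Aa, Ang4, Erdr1 and Map1b were each called in the same direction in 31 of 36 alternatives and Nnt in 32 of 36, and Pi16 in 9. The alternatives are not independent, since many leave out WT array 2. All 46 named called genes lost their call with the slide as a random block, and as a fixed block with or without WT array 2. With the compared groups alone 43 lost it and 0 kept it, and without WT array 2 as well 41 lost it and 4 kept it. With the slide as a random block and without WT array 2, 46 kept it. The median stayed negative in 36 of 36 for the fibroblast (-1.79 to -0.63), resident macrophage (-1.93 to -0.11), MHC class II (-1.95 to -0.27) and ribosomal protein lists (-0.88 to -0.06), and positive in 36 of 36 for the Hox genes (0.30 to 0.69).

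With the mean of its probes Arsk was -1.47, or -1.58 without the dim array. Without repeat probes Cat was -0.82 and Pign -0.61, and without the dim array too Cat was -0.68, Pign -0.29, Smo -0.25, Atp8a1 0.093 and Ralgps1 0.20; another probe then stood for the gene. Mmp2 was 1.01 without WT array 3 and was negative and called with array weights (-2.21) and in every setting run without the dim array but the compared groups alone and the fixed slide block, where it was negative and not called. The called values were -1.60, -1.62, -1.74, -1.77, -1.90, -1.94 or -2.45. Few probes well above background on the dim array limit what is known of weakly expressed genes.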

Other observations

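Among the leading falls without WT array 2, 11 of 12 were measured by probes with no dinucleotide repeat. Ear2, which encodes a ribonuclease of eosinophils and some macrophages, lay at 3.23, -3.22 and 2.27 in WT and 0.88, -1.18 and -1.58 in uMT, a difference of -3.38 (SE 0.61, adjusted p = 0.0015) without that array and an adjusted p of 0.48 with it. Ear1 and Rnase2a of the same family differed by -3.31 and -3.13 without it. Ear10, chosen after its values were seen, was called with all arrays, with a difference of -1.78 (adjusted p = 0.03). These genes are near-identical copies, whose probes may share signal. Retnla, which marks alternatively activated macrophages, lay at 5.71, 2.92 and 4.65 in WT and 2.49, 2.21 and 1.08 in uMT, a difference of -3.25 (SE 1.25, adjusted p = 0.049) without it. H2-DMa, a peptide-loading chain of MHC class II, differed by -3.16 (SE 0.75, adjusted p = 0.0043), and fibromodulin (Fmod), a proteoglycan that binds collagen fibrils, by -3.16 (SE 0.54, adjusted p = 0.0013). In Ear2, H2-DMa and Fmod the dim WT array lay well below the other WT arrays, and with it Ear2, Ear1, Rnase2a, Retnla, H2-DMa and Fmod were not called.

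Of the 12 leading rises without WT array 2, 4 were measured by a CA repeat probe, 1 by a GA repeat probe and 7 by a probe with none. Of those 7, Adam24, a protease of the testis, lay at -6.02, 1.24 and -6.09 in WT and -1.63, -2.26 and -1.93 in uMT. It was not well above background on WT arrays 1 and 3, was at least 3.99-fold higher in uMT, and was higher still on the dim WT array. The vomeronasal receptor Vmn1r174, at least 4.31-fold higher, and the mast cell protease Mcpt2, at least 4.83-fold higher, had the same pattern over the arrays.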
